A study of Homo sapiens with 6 samples.

Results

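Genes that mark the differentiated epithelium of the colon were examined in samples labelled HCT-116, an established human colon carcinoma line. The list holds 46 genes of the 60546 gene identifiers measured, chosen by symbol as transcriptional regulators of the gut lining, adhesion and surface proteins, absorptive cell genes, mucins and goblet cell genes, plus CHGA for enteroendocrine cells. All 46 symbols were found in the table, and 30 of them had enough reads to be tested.

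The study compared 3 libraries labelled GOLPH3 with 3 labelled Vector, made from HCT-116 cells that carried either PMSCV-GOLPH3 or PMSCV-Vector. Both were stable lines made with the same viral backbone, so both carry the PMSCV sequence, and the GOLPH3 line has the added human GOLPH3 cDNA and was selected with puromycin. The labels give a wild type genotype for all 6 samples and the same serum-supplemented medium, and they name no drug. The methods describe the cells as different generations of the same lines, so the p-values measure the spread between such samples and not between independently made lines. Each sample title ends in P and a number, which was 8, 12 and 13 for GOLPH3 replicates 1, 2 and 3 and 12, 11 and 13 for Vector replicates 1, 2 and 3. What P stands for is not given.

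The lining of the colon renews itself from crypt stem cells, whose daughters become absorptive colonocytes or secretory cells such as goblet and enteroendocrine cells. CDX1, CDX2 and HNF4A are transcription factors that keep intestinal identity, GATA4 and GATA6 help to set position along the gut, and KLF4, KLF5, ELF3 and EHF act more widely in epithelia. Goblet cells release the gel-forming mucin MUC2 with packaging and protective proteins such as FCGBP, TFF3 and AGR2, whereas colonocytes carry carbonic anhydrases, ion transporters and membrane mucins.

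Depth was similar in the 6 libraries, with 15708846 to 21900764 reads assigned to genes, of which mitochondrial genes took 4.41% to 9.97%. Levels are given as normalized reads, that is, reads per gene divided by a size factor of the library. A gene with 3 reads corresponds to 2.47 to 3.29 normalized reads, set by each library's size factor, and this limit covers counting error only. The GOLPH3 transcript itself was not higher in the GOLPH3-labelled libraries, with 1428 ± 183 (SD, n = 3) against 1777 ± 267 normalized reads and a log2 difference of -0.31 (standard error 0.27, limma adjusted p = 0.609). An exact two-sided permutation test of these 6 levels gave p = 0.2, and 3 against 3 libraries cannot go below 0.1. The Vector-labelled libraries also held 4064 to 12210 normalized reads of a list of 9 genes written for the kidney line HEK293, against 115 to 139.6 in the GOLPH3-labelled ones. The list was written with the largest falls of these data already known, so this difference is a description and not a test. In the GOLPH3-labelled libraries 112 to 134 of these reads were from PAX2, which was not called. Whether all 6 libraries hold HCT-116 cells only was not tested, and the groups are called by their labels.

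Most of the list was silent or nearly so in both groups. Only 15 of the 46 genes reached a group mean of at least 10 normalized reads. A further 16 had at most 3 reads in every library, namely CDX1, CEACAM7, GUCA2A, GUCY2C, CA4, FABP1, MUC20, MUC5AC, TFF1, TFF2, TFF3, SPINK4, AGR2, AGR3, CLCA1 and CHGA. Of these, CA4, FABP1, TFF2 and CLCA1 had no read at all. The remaining 15 genes lay between these classes, with no group mean of 10 normalized reads or more. The list was not silent as a whole, since the colonocyte gene CA2 and the goblet gene FCGBP were expressed in every library and the general epithelial gene EPCAM was abundant, whereas CA4, GUCA2A, AQP8, TFF3 and CLCA1 had at most a few reads. The intermediate filament gene KRT20, a marker of differentiated colonocytes that is no member of the list, also had 0 reads in every library. It is named here because its level bears on the label. KRT20 is from a set of 23 further brush border and absorptive genes, of which 5 had no read in any library. In the same set 16 genes had more than 3 reads in some library. USH1C had 110.5 to 321 and DPP4 37.8 to 186 normalized reads over all libraries.

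Corrected for gene length, the 15 expressed genes spanned more than 3 orders of magnitude. EPCAM, the epithelial cell adhesion molecule, had the most, with a mean over all 6 libraries of 1798 normalized reads per kilobase of exon, above 98.6% of protein-coding genes. KLF4 followed with 955 and CA2, a cytosolic carbonic anhydrase, with 818 normalized reads per kilobase. KLF5 had 686, ELF3 312, EHF 147, GATA6 135 and CDX2 95.5 normalized reads per kilobase. GATA4 had 29.04, CEACAM1 21.4, HNF4A 12.1, FCGBP 11.1 and MUC1 10.99 on the same scale. The large mucin genes MUC12 and MUC5B came last, with 1.59 and 0.826 normalized reads per kilobase. These means pool groups that differ for some genes. The mean of the Vector-labelled libraries was 1369 normalized reads per kilobase for CA2 and 1217 for EPCAM. That order came from Vector replicate 3 alone (1865 against 698). EPCAM was higher than CA2 in Vector replicate 1 (1277 against 1002) and Vector replicate 2 (1675 against 1241). In the GOLPH3-labelled libraries the means were 267 for CA2 and 2379.5 for EPCAM. GATA4 had a mean of 58.1 in the Vector-labelled libraries and 0 in the GOLPH3-labelled ones on this scale. The lowest and highest libraries of neighbouring genes overlapped at every step of this order except between MUC1 and MUC12, so most single ranks are not separated. Lengths are the union of all annotated exons, which lowers the value of genes with long alternative exons.

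**Figure D1:**
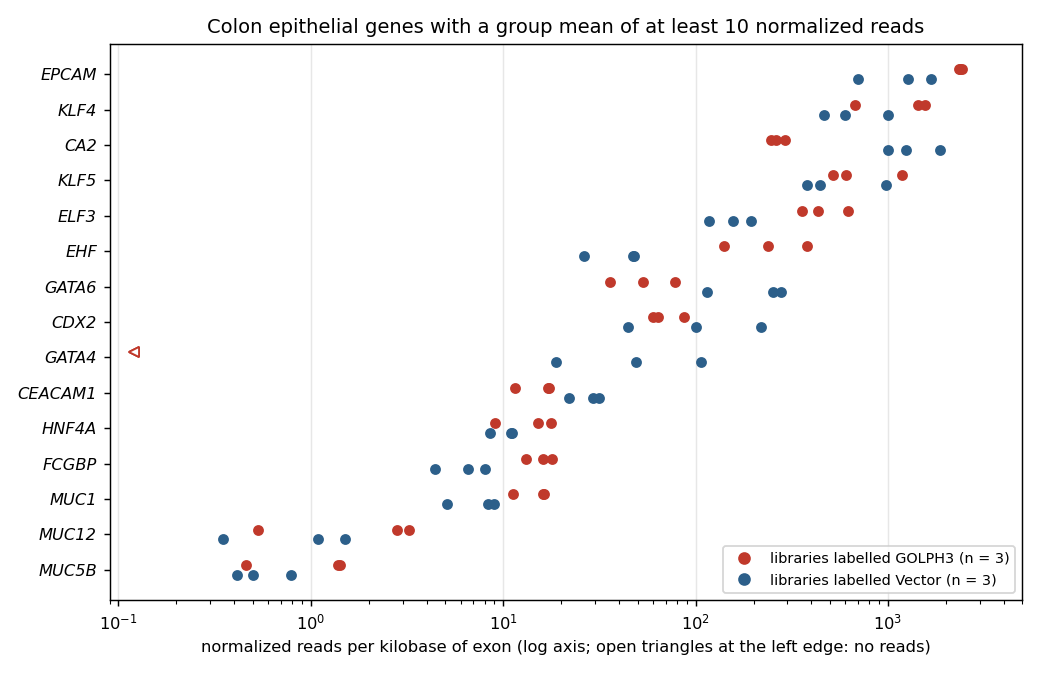
Level of the 15 genes with a group mean of at least 10 normalized reads, in normalized reads per kilobase of exon on a log axis, with a point for each library (red for the label GOLPH3, blue for Vector). The genes run from EPCAM (mean 1798) to MUC5B (0.826), and the open triangle shows that GATA4 had no read in the GOLPH3-labelled libraries.

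Of the 30 genes tested, 5 passed an adjusted p of 0.05 in limma over all genes. EHF and ELF3 were higher in the GOLPH3-labelled libraries, and GATA4, GATA6 and CA2 were lower. With the P number as a block, limma called 10 members, adding EPCAM, FCGBP and KLF4 higher and CDX2 and CEACAM1 lower. That fit compares only the 4 libraries of P12 and P13, with 1 library per group at each number. It called 6082 of all 26536 genes, and its p-values rest on very little replication. Without the block, 5.07% of all 26536 genes tested passed in either direction, 0.953% higher and 4.12% lower. The median log2 difference of the 30 genes was 0.37, beside 0.016 over all genes tested, and it was 0.33 over the 42 members with any read when no filter was used. The sign of the difference was positive for 21 and negative for 9. Many of these signs rest on few reads, since only 15 members reached a group mean of at least 10 normalized reads. With a pseudocount of 10 the median of the 30 genes was 0.11. The groups did not overlap for 12 of the 30 genes (6 higher and 6 lower), and they did not overlap for 22.0% of all genes tested. Because the libraries come from bulk RNA, fewer cells that express a gene and less RNA per cell cannot be told apart in any of these values.

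**Figure D2:**
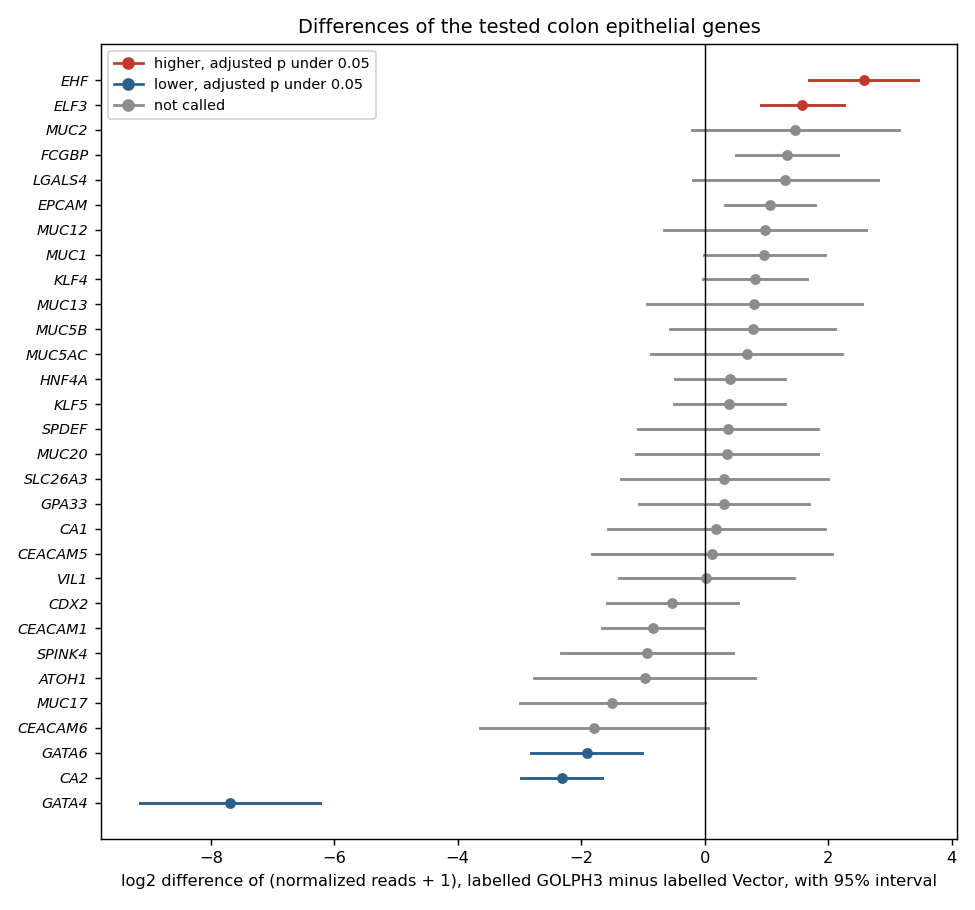
Difference of the mean log2(normalized reads + 1), labelled GOLPH3 minus labelled Vector, for the 30 genes tested, with 95% intervals from limma (n = 3 per group). EHF (2.58) and ELF3 (1.58) are called higher, GATA6 (-1.91), CA2 (-2.31) and GATA4 (-7.69) lower, and the 25 grey genes are not called. The GATA4 value is set by the 1 added before the log, since it had no read in a whole group.

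The regulators held 4 of the 5 calls, 2 in each direction, from 10 tested of 11. GATA4 (ENSG00000136574, chromosome 8 from 11676959 to 11760002, GENCODE 29 on GRCh38), a zinc finger factor of foregut and small intestine, had no read in any of the 3 libraries labelled GOLPH3. In the Vector libraries it had 217, 83.3 and 473.7 normalized reads. All 3 Vector libraries thus expressed GATA4, with a wide spread among them, and the groups did not overlap. The level was at least 87.0-fold lower in the GOLPH3-labelled libraries, taking 3 reads per library averaged over the group as the limit (adjusted p = 1.95e-05 from limma). GATA4 passed the filter on low values only through the Vector-labelled libraries. It was not tested when 1 of these was left out and the filter stayed at 3 libraries.

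GATA6 (ENSG00000141448, chromosome 18 from 22169443 to 22202528), the related factor that is widely expressed in the adult gut, stayed present in both groups. Its levels were 142, 308 and 209 normalized reads in the GOLPH3-labelled libraries and 997, 450.25 and 1093 in the Vector-labelled ones. Every GOLPH3 library was below every Vector library, and Vector replicate 2 was the lowest of its group. The log2 difference was -1.91 (standard error 0.41, limma adjusted p = 0.0172). This call was lost when GOLPH3 replicate 3, Vector replicate 1 or Vector replicate 3 was left out, with adjusted p-values of 0.055, 0.108 and 0.0963 from limma.

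ELF3 (ENSG00000163435, chromosome 1 from 202007945 to 202017188) and EHF (ENSG00000135373, chromosome 11 from 34621093 to 34661057) belong to the epithelium-specific branch of the ETS family of transcription factors. ELF3 had 2562, 3114 and 4446 normalized reads in the GOLPH3-labelled libraries and 1391, 841 and 1123 in the Vector-labelled ones. The lowest GOLPH3 library was well above the highest Vector library. ELF3 rose by 1.58 on the log2 scale (standard error 0.31, limma adjusted p = 0.00958). The limma adjusted p was 0.0541 without GOLPH3 replicate 3, and 0.0629 without Vector replicate 3 when the filter on low values was set at 2 libraries.

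EHF had 1664, 1046 and 619 normalized reads in the GOLPH3-labelled libraries and 207, 210.3 and 115 in the Vector-labelled ones. The GOLPH3 libraries spread over more than a doubling, yet each lay above all Vector libraries. The group means were 1109.8 ± 525 and 177 ± 54.1 (SD, n = 3), and the log2 difference of 2.58 (standard error 0.40, limma adjusted p = 0.00188) was the highest of the 30 genes tested.

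CDX2 (ENSG00000165556, chromosome 13 from 27962137 to 27971139), the caudal homeobox factor used to recognise intestinal tumours, had 247, 261 and 358 normalized reads in the GOLPH3-labelled libraries. The Vector libraries had 415, 184 and 897 and enclosed all 3 of these values. The log2 difference was -0.52 with a 95% interval from -1.59 to 0.54 (limma adjusted p = 0.636, or 0.000452 if P was a block), which holds both a fall and no change. Leaving out Vector replicate 3 took the log2 difference to 0.04. CDX1, its paralogue, had a single read in 1 library labelled GOLPH3 and none elsewhere. HNF4A (ENSG00000101076), a nuclear receptor of the gut and liver, had 66.5, 110.5 and 130.2 normalized reads in the GOLPH3-labelled libraries and 81.3, 62.4 and 80.7 in the Vector-labelled ones, with overlapping groups. Its log2 difference was 0.40 with a 95% interval from -0.49 to 1.30 (limma adjusted p = 0.668).

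KLF4 and KLF5, zinc finger factors of differentiating and of dividing crypt cells, exceeded 1000 normalized reads in every library, as did EPCAM. KLF4 had a log2 difference of 0.82 and KLF5 of 0.40, both with overlapping groups (limma adjusted p = 0.301 and 0.679). SPDEF and ATOH1, which direct goblet and secretory fate, did not reach a group mean of 10 normalized reads, with log2 differences of 0.38 and -0.97 and wide intervals.

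**Figure D3:**
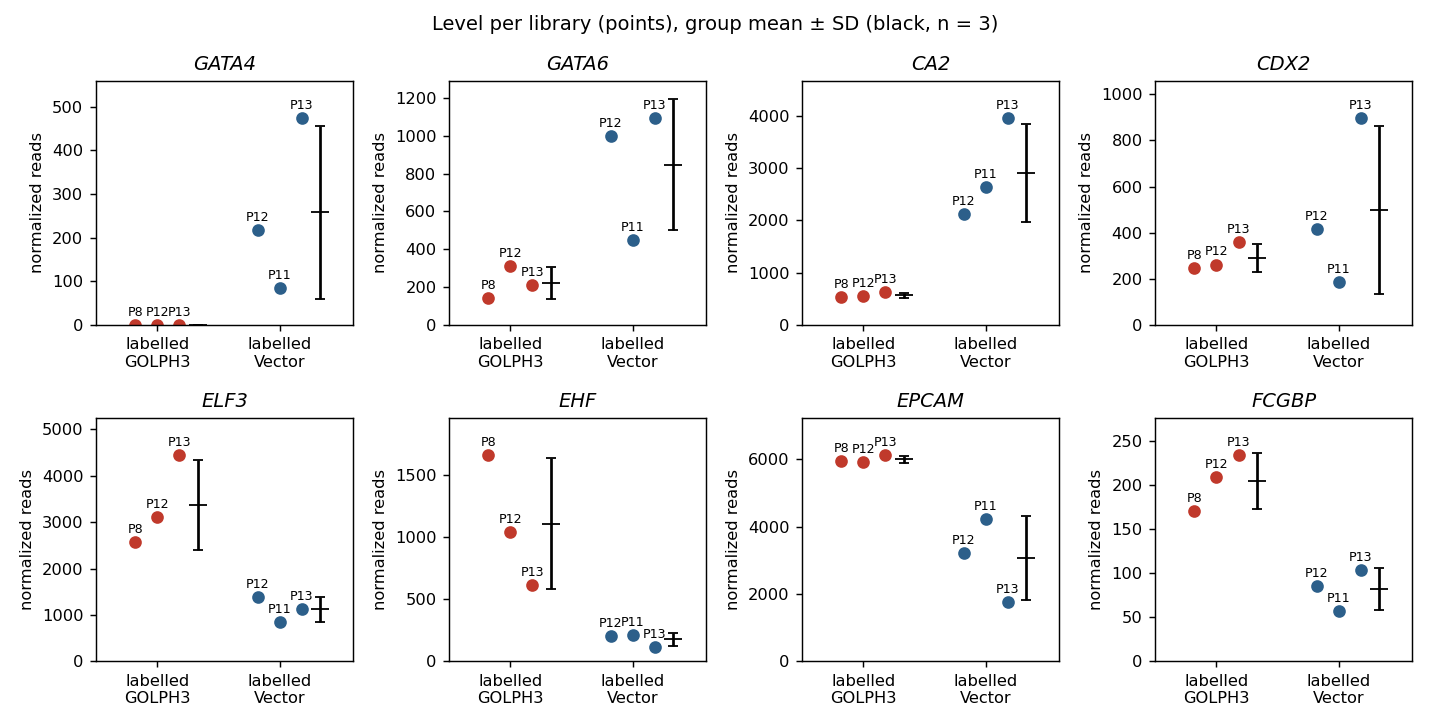
Normalized reads of 8 genes in each of the 6 libraries (points, with the number after P in the title of each sample), beside the group mean ± SD (black bars, n = 3). GATA4, GATA6 and CA2 are lower in the GOLPH3-labelled libraries without overlap, ELF3, EHF, EPCAM and FCGBP are higher without overlap, and CDX2 overlaps.

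Among the absorptive cell genes, 4 of 9 could be tested and 1 was called. CA2 (ENSG00000104267, chromosome 8 from 85463852 to 85481493) encodes the cytosolic carbonic anhydrase of colonocytes and many other cells. It had 523, 557 and 619 normalized reads in the GOLPH3-labelled libraries and 2128, 2635 and 3959.7 in the Vector-labelled ones. The GOLPH3 libraries lay close together and far under the Vector libraries, at means of 566 ± 48.8 against 2907 ± 946 (SD, n = 3). CA2 fell by 2.31 on the log2 scale (standard error 0.30, limma adjusted p = 0.000453). The other carbonic anhydrases of the list did not accompany it at a measurable level, since CA1 had at most 4.95 normalized reads and CA4 none. SLC26A3, the chloride and bicarbonate exchanger of the surface cells, reached at most 4.12 normalized reads. AQP8, a water channel, had reads in 2 libraries labelled GOLPH3 only, at 1.65 and 4.27 normalized reads.

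None of the 7 adhesion and surface proteins was called by limma without a block, DESeq2 or edgeR with all 6 libraries, and 2 of the 6 tested by limma, EPCAM and CEACAM1, had an unadjusted p under 0.05. Both were called with the P number as a block. EPCAM (ENSG00000119888, chromosome 2 from 47345158 to 47387601) had 5935, 5917 and 6129 normalized reads in the GOLPH3-labelled libraries and 3217, 4219.9 and 1758 in the Vector-labelled ones. The GOLPH3 libraries were nearly equal and all above the Vector libraries, which were spread over more than a doubling. The log2 difference was 1.06 with a 95% interval from 0.33 to 1.78, and the limma adjusted p was 0.103 (0.0419 without Vector replicate 2, or 8.9e-08 if P was a block). CEACAM1, a cell adhesion glycoprotein, showed the opposite order, with 63.5 to 96.1 normalized reads in the GOLPH3-labelled libraries and 121 to 173 in the Vector-labelled ones, but its log2 difference of -0.84 had a limma adjusted p of 0.270.

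The tumour-associated relatives CEACAM5 and CEACAM6 had group means under 10 normalized reads, and reads of these near-identical paralogues may be shared among them. LGALS4, a galectin of the gut surface, had 5.37, 3.30 and 2.13 normalized reads in the GOLPH3-labelled libraries and 2.06, 0 and 0.86 in the Vector-labelled ones. The groups did not overlap, but the Vector values are within 3 reads and no fold is given (limma adjusted p = 0.361). VIL1, the microvillus actin bundler villin, had 1.07, 3.30 and 1.07 normalized reads in the GOLPH3-labelled libraries and 1.03, 2.19 and 1.72 in the Vector-labelled ones, so it was near the limit of 3 reads in every library. GPA33 had 2.19 to 7.21 normalized reads over all libraries, with overlapping groups.

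No mucin was called by limma, among 5 tested of 6 membrane mucins and 3 tested of 3 secreted mucins, or by DESeq2 or edgeR. By limma 1 of these 8, MUC17, had an unadjusted p under 0.05. MUC1, a membrane mucin of most glandular epithelia, had 77.3, 52.8 and 75.8 normalized reads in the GOLPH3-labelled libraries and 39.1, 24.1 and 42.0 in the Vector-labelled ones, without overlap (log2 difference 0.97, limma adjusted p = 0.291). MUC12 had 9.07 to 55.5 and 6.01 to 25.7 normalized reads and MUC5B had 8.59 to 26.4 and 7.67 to 14.6, with overlapping groups. MUC2, the main gel-forming mucin of the colon, had 2.15, 6.60 and 7.47 normalized reads in the GOLPH3-labelled libraries and 4.12, 0 and 0.86 in the Vector-labelled ones. These groups overlapped, and the log2 difference of 1.47 had a limma adjusted p of 0.357. MUC17 had 0, 1.65 and 0 against 3.09, 4.38 and 1.72 normalized reads without overlap (limma adjusted p = 0.285), all at or near the limit of 3 reads. MUC13, MUC20, MUC4 and MUC5AC stayed at 7.42 normalized reads or less.

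Of the 9 goblet cell genes, only SPINK4 and FCGBP could be tested and neither passed the adjusted threshold in limma on the values as deposited or in edgeR, although FCGBP had an unadjusted p under 0.05 in both. FCGBP (ENSG00000275395, chromosome 19 from 39863323 to 39934626) encodes a large protein that is secreted with MUC2. It had 171, 209 and 234 normalized reads in the GOLPH3-labelled libraries and 85.4, 57.0 and 104 in the Vector-labelled ones. Every GOLPH3 library was above every Vector library, and the log2 difference of 1.34 (standard error 0.38) had a limma adjusted p of 0.0678. DESeq2 on the recovered reads gave it an adjusted p of 0.0151, and limma called it after quantile normalization (0.0319), with the P number as a covariate (0.0256) and with that number as a block (0.0010). SPINK4 and REG4 had at most 2.19 and 4.29 normalized reads, AGR2 had 3 reads in 1 library, and the TFF genes had 0 to 2.06 normalized reads. The enteroendocrine gene CHGA had a single read in all.

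Reference sequence just before the start of transcription was examined for 32 of the 46 genes. These have an entry in the set of RefSeq promoters on GRCh38.p14 that was used here. Both strands of the 250 bases before the first listed start were searched. The E-box CAGGTG is a letter pattern recognised by repressors of epithelial genes such as ZEB1 and ZEB2, and by other factors. It was present before 10 of the 32 members (31.2%) and before 17.5% of all 35116 promoters in the same set. Members were taken with a single entry per gene and the 35116 promoters were not, so the bases of these shares differ. Among the 11 expressed members with an entry it was found before 4, namely ELF3, FCGBP, MUC1 and HNF4A, and their sites are shown because they are the expressed members that hold the pattern. Each line reads 5′ to 3′ on the strand of the gene with the E-box in capitals, which is written CACCTG where it lies on the other strand.
ELF3 (chr1:202010455-202010484, plus strand, 120 bases before the start): gaatatgcaaatCACCTGgggccaggagcc
FCGBP (chr19:39934704-39934733, minus strand, 87 bases before the start): ccttcatggtccCAGGTGgcccttgtcatg
MUC1 (chr1:155192980-155193009, minus strand, 82 bases before the start): gcggggttttgtCACCTGtcacctgctccg
HNF4A (chr20:44355485-44355514, plus strand, 202 bases before the start): gatgtccccataCACCTGgctctgggttcc
A second E-box follows directly in MUC1 and is visible in lower case. The ELF3 site also lies inside an exon of a longer annotated ELF3 transcript, and the other 3 sites overlap no exon of their gene. Of these 4 genes ELF3 was called higher, and FCGBP, MUC1 and HNF4A were not called. A match is a description of letters and not evidence of binding.

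EHF, the member with the highest log2 difference, held none of the 4 patterns searched, which besides the E-box were TATAAA, the GATA core GATAA and the ETS core GGAAG. Its window (chr11:34624007-34624256, plus strand, GRCh38.p14) lies inside the annotated EHF gene, which begins at 34621093, but overlaps no annotated EHF exon. This window precedes the first listed start and not the beginning of the gene, and it reads as follows.
EHF: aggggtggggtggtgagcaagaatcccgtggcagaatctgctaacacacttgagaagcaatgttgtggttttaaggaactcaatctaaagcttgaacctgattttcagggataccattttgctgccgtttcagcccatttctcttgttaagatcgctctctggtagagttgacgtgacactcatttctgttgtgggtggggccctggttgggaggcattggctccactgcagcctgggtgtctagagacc
The window before GATA6 also held none of the 4. TATAAA was found before 28.1% of the members and 10.7% of all promoters, GATAA before 34.4% and 20.4%, and GGAAG before 68.8% and 65.1%. GATA4, CA2 and EPCAM have no entry in the promoter set used here.

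The genes beside the called members were not called with them in most cases. None of the 4 nearest protein-coding neighbours was called for GATA4, GATA6, ELF3 or EHF, and for CA2 the neighbours CA1, CA3 and PSKH2 were not called either. The exception was ATP6V0D2, a subunit of the vacuolar proton pump that lies 505.8 kilobases from CA2. It had 0, 0.82 and 0 normalized reads in the GOLPH3-labelled libraries and 90.6, 27.4 and 30.0 in the Vector-labelled ones (limma adjusted p = 0.000479). Like GATA4, ATP6V0D2 passed the filter on low values only through the Vector-labelled libraries. ELF5, an ETS factor next to EHF, had 13.9, 9.07 and 13.9 against 4.12, 0 and 3.43 normalized reads without overlap and was not called (limma adjusted p = 0.125).

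Antisense genes overlap exons of GATA6 and ELF3, and whether reads were counted by strand is not stated, so their reads cannot be told apart with certainty. GATA6-AS1 had 5.77 to 9.66 normalized reads in the GOLPH3-labelled libraries and 18.6 to 66.9 in the Vector-labelled ones, and was thus lower in every GOLPH3-labelled library, as was GATA6 (limma adjusted p = 0.0952). ELF3-AS1 had 171 to 213 and 124 to 164 normalized reads, with a log2 difference of 0.46 against 1.58 for ELF3 (limma adjusted p = 0.535).

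The number after P occurs in both groups for P12 and P13 only, with 1 library on each side, so a difference within 1 pair has no test. Both pairs are tested together only in the fit with the P number as a block. All 5 called genes kept their direction in both pairs. GATA4 had 0 against 217 normalized reads within P12 and 0 against 473.7 within P13. On the log2 scale GATA6 differed by -1.69 and -2.38, and CA2 by -1.93 and -2.68. ELF3 differed by 1.16 and 1.98 and EHF by 2.33 and 2.42. EPCAM differed by 0.88 and 1.80, FCGBP by 1.28 and 1.16, and CDX2 by -0.66 and -1.32.

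A wider set of 90 gut genes that are not on the list was read from the same fit. Of these, 62 were tested and 7 were called, 2 higher and 5 lower, with a median log2 difference of 0.03. Over all 26536 genes tested, 5.07% were called, 0.953% higher and 4.12% lower. With at most 2 calls in each role below, the roles cannot be set against these shares. Of 12 further gut transcription factors, 11 were tested and SOX9, a factor of crypt progenitors and Paneth cells, was called, with 2931 ± 733 normalized reads in the GOLPH3-labelled libraries against 1283 ± 60.7 (SD, n = 3; log2 difference 1.16, limma adjusted p = 0.0353). Of 23 brush border and absorptive genes, 16 were tested and MTTP, which loads lipoproteins, was called lower, at 0.991 against 11.8 normalized reads on average (limma adjusted p = 0.0301). MTTP had only 2, 1 and 0 reads in the GOLPH3-labelled libraries. DESeq2 also called it, whereas edgeR called none of the 7 genes of this role that it tested. Of 10 further goblet genes, 6 were tested and 2 were called in opposite directions. MLPH, a carrier of secretory organelles, rose by 1.69 on the log2 scale from 406 ± 47.8 in the Vector libraries to 1337 ± 366 (SD, n = 3; limma adjusted p = 0.00491). CREB3L1, a secretory pathway factor, had 7.05 normalized reads on average against 49.1 (limma adjusted p = 0.0411). DESeq2 also called both goblet genes, whereas edgeR called MLPH and not CREB3L1.

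Of 12 crypt stem cell genes, 10 were tested and limma called 2 lower and none higher, where 4 had an unadjusted p under 0.05 and DESeq2 also called RNF43 and CD44 higher. LGR5, the receptor that marks crypt base stem cells, had 2.45 ± 1.55 normalized reads in the GOLPH3-labelled libraries against 68.9 ± 30.8 (SD, n = 3; log2 difference -4.34, limma adjusted p = 0.000832). MEX3A, an RNA-binding protein of slowly cycling stem cells, had 172 against 539.7 normalized reads on average (log2 difference -1.60, limma adjusted p = 0.0278). Of 15 enteroendocrine genes, 9 were tested and INSM1, a neuroendocrine transcription factor, was called lower, with no read in the GOLPH3-labelled libraries and 23.7, 10.96 and 50.6 normalized reads in the Vector-labelled ones, which is at least 9.58-fold lower (limma adjusted p = 0.00126). Like GATA4, INSM1 passed the filter on low values only through the Vector-labelled libraries. No Paneth, tuft or gastric gene was called among 5 and 5 tested, of 10 and 8 listed, by limma, DESeq2 or edgeR, and none of these 10 had an unadjusted p under 0.05 in limma.

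Levels of genes that mark other cells moved between the same groups. All 8 general epithelial genes were tested, and limma and edgeR called 4 higher and DESeq2 7, among them the keratin KRT19 (log2 difference 1.92, limma adjusted p = 0.0044) and the tight junction gene CLDN4 (2.06, limma adjusted p = 0.0071). The 8 epithelial genes summed to 77140 to 149600 normalized reads in the GOLPH3-labelled libraries and 34970 to 43210 in the Vector-labelled ones. Of 17 mesenchymal genes, 15 were tested, 6 were called lower and none higher, and neither DESeq2 nor edgeR called one higher. However, 3 genes, COL1A1, COL6A3 and THY1, were higher without overlap at an unadjusted p under 0.05 by limma. The sums of the 17 genes were 1860 to 2280 normalized reads in the GOLPH3-labelled libraries and 4210 to 7502 in the Vector-labelled ones, with DCN at 0 in every library. COL1A1 alone held 800 to 1499 of the former and 466 to 726 of the latter. VIM, the filament protein vimentin, had 5.37, 41.2 and 11.7 normalized reads in the GOLPH3-labelled libraries and 3407, 1653 and 3194 in the Vector-labelled ones (limma adjusted p = 1.09e-05). CDH2, which encodes N-cadherin, had 2.15, 1.65 and 0 against 717, 279 and 737 normalized reads, and the repressor gene ZEB2 had no read against 482, 191 and 431.

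A list of 9 genes written for HEK293 cells, a human embryonic kidney line, with the largest falls of these data already known, had 8 called lower and none higher by limma, DESeq2 and edgeR, and the ninth, PAX2, had no unadjusted p under 0.05. Its sum was 115 to 139.6 normalized reads in the GOLPH3-labelled libraries and 4064 to 12210 in the Vector-labelled ones. Of its 9 genes 6, IRS4 and HOXD13 among them, had no read in any library labelled GOLPH3. These 6 genes and NEFL passed the filter on low values only through the Vector-labelled libraries. The tools used the same libraries, so their calls describe this list and are not separate support. IRS4, an insulin receptor substrate, had 1412, 1006 and 4831 normalized reads in the Vector libraries.

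The part that a difference in cell content between the libraries may have in the values of the list was not tested.

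**Figure D4:**
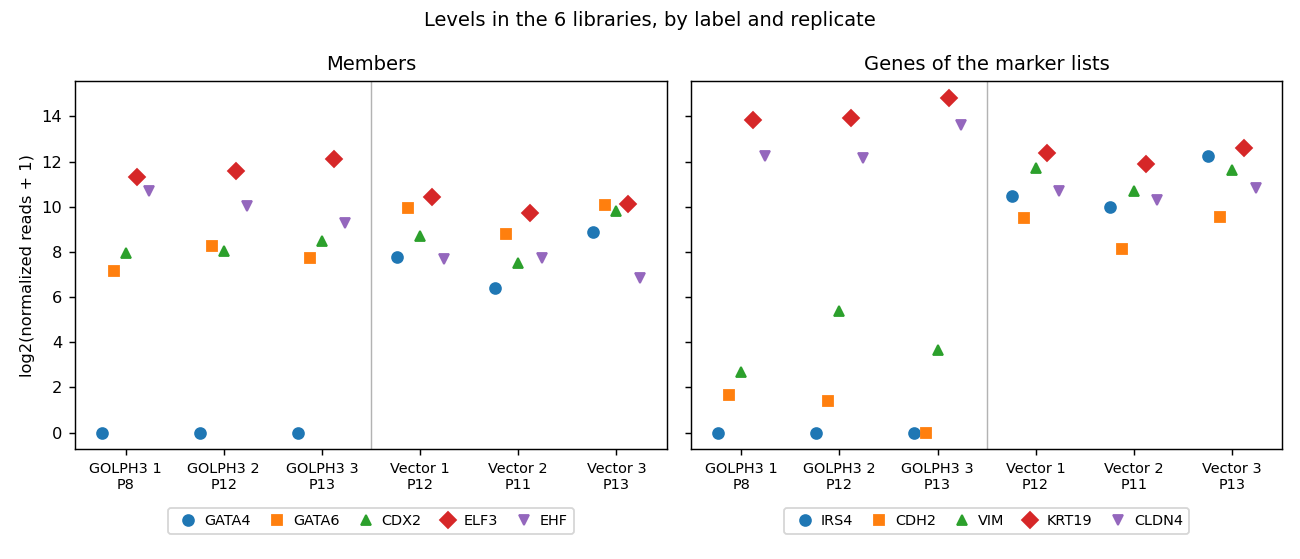
Level in each library as log2(normalized reads + 1), for 5 regulators on the left and 5 genes of the marker lists on the right, with the groups separated by the grey line. GATA4 and IRS4 are at 0 in all 3 libraries labelled GOLPH3 and present in all 3 labelled Vector, and KRT19 and CLDN4 are higher in every library labelled GOLPH3.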

How the data were processed

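RNA from 3 libraries per group was sequenced, and the authors deposited a table with a signal per gene and library. Every value above 0 was a whole multiple of a step per library (100.0% within 0.02 reads), so the deposited signal is reads divided by a size factor, without length correction, and the whole reads were recovered from it. The submitters' processing notes name fastp 0.20.0, HISAT2 2.1.0, Cufflinks, featureCounts 1.6.1, DESeq2 and GRCh38, and the annotation is not given in the sources used here. The 60590 rows held 60546 identifiers, and 44 second rows were added to the first. Gene positions and exon lengths came from GENCODE 29, which held 96.4% of the identifiers. Replicates differed by more than sampling noise (chi-square per degree of freedom at least 65.3), so each library was counted once.

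Genes that reached a value of 1 in 3 or more libraries were tested on log2(value + 1) with limma 3.58.1 (R 4.3.3), two-sided, with Benjamini-Hochberg adjustment over all genes tested and a threshold of 0.05. A log2 difference of a low gene is understated by the added 1. A gene with no value of 1 or more in a group passed this filter only through the other group. Alternatives were DESeq2 1.42.0 and edgeR 4.0.16 on the recovered reads, quantile and TMM scaling, pseudocounts of 0.1 and 10, other filters, blocks for the replicate number and for the P number, the P number as a covariate, and each library left out. A filter at 2 libraries for the fits without a Vector library was added after seeing the data. The scripts were tested on simulated data.

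The members, the gene lists and the settings were chosen with earlier results of these data known. Values in every library are given for called members, for members with an absolute log2 difference over 1 and groups that do not overlap, and for EPCAM, CDX1, CDX2, HNF4A, VIL1 and MUC2. Of the other lists, the called genes with the smallest p are named, at most 2 per list, plus VIM and CDH2. KLF4, MUC1, KRT20, USH1C, DPP4, RNF43, CD44, PAX2, COL1A1, COL6A3, THY1, ATP6V0D2, ELF5, the antisense genes and ZEB2 were named after their values were seen. Promoter sequences came from RefSeq on GRCh38.p14. A marker list of leukocyte and endothelial genes is not reported here.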

Additional observations from a re-analysis of the deposited data

Results flagged for a closer look

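MUC12, a membrane mucin of colonocytes, differed in opposite directions within the 2 numbers after P that occur in both groups. The log2 difference, labelled GOLPH3 minus labelled Vector, was -1.41 within P12 and 3.01 within P13. The libraries behind it had 9.07 and 25.7 normalized reads for P12 and 55.5 and 6.01 for P13. Each number has 1 library per group, and the difference between the pairs was not tested.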

How the results depend on the processing

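EHF and CA2 were called in all 20 alternatives with a test, with adjusted p-values up to 0.0307 and 0.00682, ELF3 in 18 (up to 0.0629), GATA6 in 14 (up to 0.131), and GATA4 in the 16 in which it was tested (up to 0.0018). The number of members called was 5 in the reported fit and 10 when the P number was a block, where CDX2, CEACAM1, EPCAM, FCGBP and KLF4 were added, and it was 3 to 5 when a library was left out. Over all genes the number called was 1346, against 2047 with DESeq2, 6082 with the P number as a block, 2399 with it as a covariate, 405 with a value of at least 1 in every library, and 459 to 1528 with a library left out (837 without Vector replicate 1 and 717 without Vector replicate 3 when the filter was set at 2 libraries). Of the 90 other gut genes, 7 were called, against 11 with DESeq2, 17 with the P number as a block, 2 with a value of at least 1 in every library, and 2 to 9 with a library left out. The median log2 difference of the members, 0.37, was 0.11 with a pseudocount of 10, 0.57 in DESeq2, 0.84 in edgeR (15 members tested), 0.66 within P13 and 0.19 to 0.71 with a library left out, and the GOLPH3 transcript differed by -0.63 within P12. VIL1 turned from 0.02 to -0.0045 with a pseudocount of 0.1 and ranged from -0.33 to 0.20 with a library left out (-0.33 without GOLPH3 replicate 2 and -0.16 without Vector replicate 1), and CDX2, at -0.52, ranged from -1.10 to 0.043 with a library left out, above 0 only without Vector replicate 3, and differed by -1.32 within P13. The causes of these moves were not tested. GATA4 failed the filter of 3 libraries whenever a Vector library was left out, and at 2 libraries it was called each time. At this depth, genes at 3 reads or less cannot show a difference.

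Deviations from the group mean had correlations of -0.232, -0.151 and 0.259 between libraries with the same replicate number. With the replicate number as a block, 1081 genes, 4 members and 5 of the other gut genes were called, the member median was 0.37, and the GOLPH3 transcript differed by -0.31. GATA6 then had a limma adjusted p of 0.0548 and the other 4 called members kept their call. Of the 3 libraries labelled GOLPH3, replicate 3 alone deviated most like the Vector library of its own number. Libraries that share a P number had correlations of 0.256 for P12 and 0.259 for P13. The highest correlation, 0.331, was between GOLPH3 replicate 1 (P8) and Vector replicate 2 (P11), which share neither number. Deviations from a mean of 3 libraries depend on each other, so these correlations do not show whether the replicate number or the P number pairs the libraries.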
